A study of Mus musculus with 6 samples.

Results

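The genes described here are 58 genes of the NRF2 pathway and of redox defence, measured in glomerular endothelial cells (GEC) of normal and diabetic mice. They were chosen by name for their known roles, in 8 groups that cover NRF2 control, glutathione, thioredoxin and peroxiredoxin, superoxide sources, scavengers of superoxide and peroxide, NADPH supply and quinone reduction, heme and iron, and metallothioneins. Of the 58 genes 55 had a probeset that lists a single gene symbol, and 46 of these reached 100 on the linear scale in 3 or more of the 6 arrays and were tested. In all, 19938 genes had such a probeset and 12763 passed the same level. For 3 genes (Prdx5, Prdx6 and G6pdx) no such probeset was found, and 9 (Gpx3, Txnrd2, Cybb, Nox4, Sod3, Nqo1, Tfrc, Slc40a1 and Mt2) lay below the level and are given by their values alone. The members nearest to that limit were Me1, which reached it in 3 arrays, and Txnrd2 and Cybb, which reached it in 2.

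The study sorted GEC from 7 month old mice and compared 3 normal samples, of genotype Tie2-GFP/ +/+, with 3 diabetic samples, of genotype Tie2-GFP/ DB/DB. Mice of the latter kind, called db/db, lack a working leptin receptor and develop obesity, diabetes and kidney disease. Animals of both groups carried the Tie2-GFP transgene, in which the Tie2 promoter makes endothelial cells fluoresce, and green cells were sorted from sieved glomeruli. Each sample was amplified and hybridised to 1 Affymetrix Mouse Gene 1.0 ST array, and the samples are labelled as biological replicates. Tie2 is also active in some blood cells, so a sort on this reporter can hold other cells than endothelium.

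NRF2, encoded by Nfe2l2, is a transcription factor that switches on antioxidant genes. In resting cells KEAP1 holds it in the cytoplasm and hands it to a ubiquitin ligase for destruction, and oxidants or electrophiles modify KEAP1 so that NRF2 escapes, enters the nucleus, pairs with a small MAF protein and binds the antioxidant response element. Since this switch acts mainly on the protein, the level of Nfe2l2 RNA need not follow its activity, and the RNA of its target genes is the usual readout. In diabetic kidney disease, oxidants made by NADPH oxidases and mitochondria of glomerular cells have long been studied as a source of damage.

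The cells carried the RNA of endothelium in both groups, with 10 of 10 pan-endothelial markers at or above the level. Their summed linear signal was 56240 to 57689 in the normal and 57489 to 59592 in the db/db arrays. Of these markers 7 had a higher mean in db/db. Tek, which encodes Tie2, differed by -0.33 and was lower in every db/db array, while Cdh5 differed by 0.21 and was higher in each. The 7 glomerular endothelial markers summed to 28193 to 29891 in normal and 27583 to 29315 in db/db arrays. Of them 3 had a higher mean in db/db, with Sost differing by 0.41 and Gata5 by -0.28. The 6 arrays correlated with r between 0.954 and 0.971, and normal replicate 2 lay farthest from the rest along the leading principal component. Globin signal was lower in db/db, with summed erythrocyte markers of 17223 to 25666 in normal and 4845 to 7563 in db/db arrays, while the red cell genes Alas2 and Slc4a1 differed by -0.10 and 0.01 on the log2 scale. Summed leukocyte markers lay at 1576 to 1580 in normal arrays and at 2625, 1398 and 1592 in diabetic replicates 1 to 3. Of 13 measured leukocyte markers 5 never reached the level, among them the defining genes Ptprc and Csf1r. Summed distal nephron markers lay at 856 to 928 in normal and 961 to 1114 in db/db arrays, and podocyte markers at 3659 to 4177 and 3415 to 3610. Of 8 measured podocyte markers 5 had a higher mean in db/db, among them Nphs1 and Wt1, by 0.06 and 0.08. The most abundant in that sum, Clic5, differed by -0.20. Cdkn1c differed most, by -0.40, and was lower in every db/db array. It alone among the podocyte markers had an unadjusted limma p under 0.05. The part of such cells in the redox values was not tested. In such bulk samples, fewer cells of a type and less RNA per cell cannot be told apart.

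None of the 46 tested redox genes passed the test between db/db and normal GEC (limma, Benjamini-Hochberg adjustment over 20661 probesets), where the lowest adjusted p was 0.562, for Txn2. Over all probesets 0% passed, with a lowest adjusted p of 0.203. The changes of the redox genes, db/db minus normal, ran from -0.49 to 0.57 on the log2 scale, with a median of 0.05 against 0.01 over all 12763 genes. Their median size was 0.14 against 0.11 over all genes. In db/db the mean was higher for 25 and lower for 21 of them, and the share with a higher mean was 54.3% against 53.7% of all genes.

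At an unadjusted p under 0.05, 2 redox genes were higher in db/db (Cyba and Hmox1, 4.35% of 46, against 3.49% of all genes) and 2 were lower (Gstm1 and Txn2, 4.35% against 3.07%). All 3 db/db arrays lay above all 3 normal arrays for 6 genes, Nfe2l2, Keap1, Mafk, Gsr, Cyba and Hmox1, which is 13% of the members against 7.39% of all genes. All 3 db/db arrays lay below all normal arrays for Gstm1 and Txn2, 4.35% against 5.92% of all genes. These shares rest on few genes, and with 3 arrays a group the smallest two-sided p of an exact permutation test is 0.1. The 95% interval of a member's change reached a median of 0.37 to either side on the log2 scale (0.19 to 1.15).

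**Figure D1:**
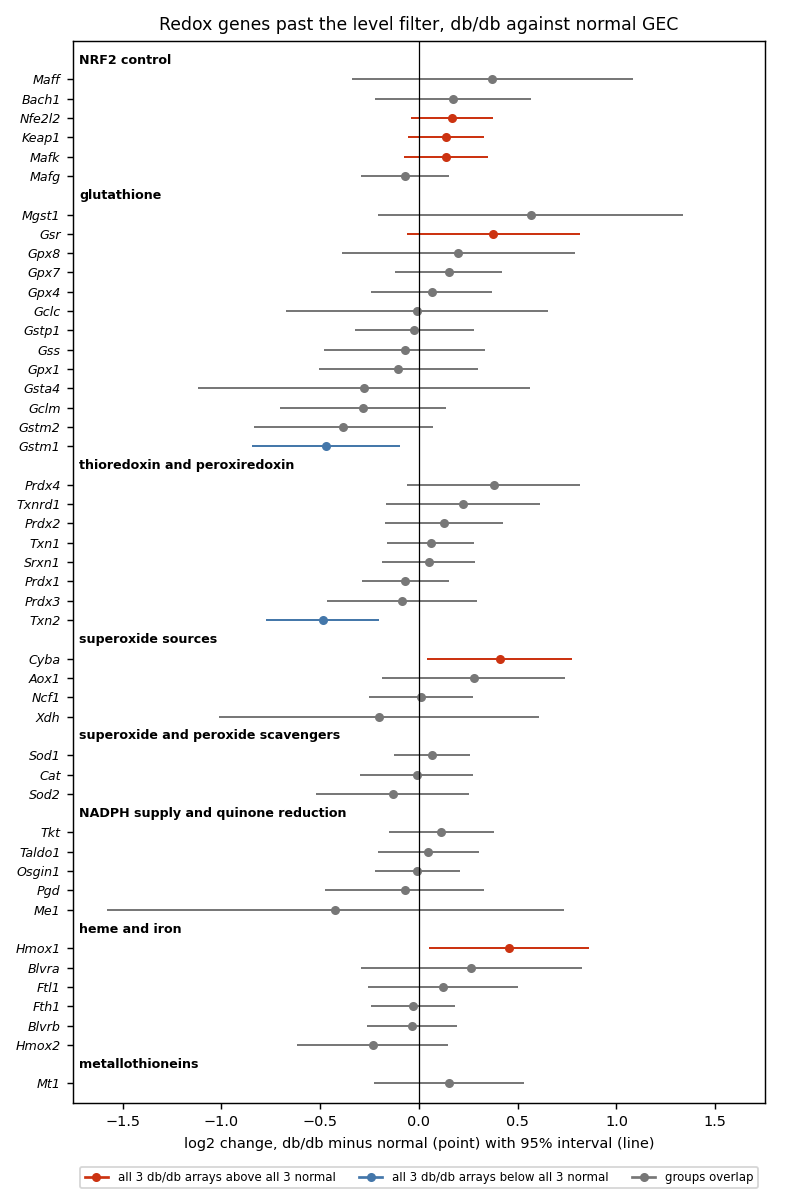
Log2 change of the 46 tested redox genes, db/db minus normal GEC, with limma's 95% interval (lines), in 8 groups by role. Red marks the 6 genes with every db/db array above every normal array, blue the 2 genes with every db/db array below, and no gene passed the adjusted test.

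Of the 6 genes of NRF2 control, 3 lay higher in every db/db array (against 7.39% of all genes) and 5 had a higher mean (against 53.7%), with a median change of 0.15 against 0.01, and 0 reached an unadjusted p under 0.05. Nfe2l2, NRF2 itself, measured 11.76, 11.66 and 11.62 (log2 signal) in normal replicates 1 to 3 and 11.79, 11.86 and 11.90 in diabetic replicates 1 to 3. The groups did not overlap, but normal replicate 1 came within a small distance of diabetic replicate 1. The change of 0.17 ± 0.08 (log2, SE), or 1.12-fold, did not pass (limma adjusted p = 0.818). Keap1, its inhibitor, measured 7.67, 7.60 and 7.65 in normal and 7.78, 7.73 and 7.83 in db/db arrays. Both the factor and its inhibitor therefore lay higher in each db/db array, and Keap1 changed by 0.14 ± 0.07 (adjusted p = 0.835).

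The small MAF proteins, which pair with NRF2 on DNA, did not move alike. Mafk measured 8.28, 8.13 and 8.17 in normal and 8.29, 8.40 and 8.30 in db/db arrays, a change of 0.14 ± 0.08 (adjusted p = 0.846). The gap between the groups was small here too, since normal replicate 1 and diabetic replicate 1 nearly met. Maff rested on a single array, with 8.43 in normal replicate 1 against 9.38 to 9.56 in the other arrays, and its change of 0.37 was 0.05 without that array. Mafg had the opposite sign, with a change of -0.07 ± 0.09. Bach1, a repressor that competes with NRF2 for the same DNA element and is released by heme, changed by 0.17 ± 0.16, with diabetic replicate 2 at 8.88 beside 9.35 and 9.31 in the other db/db arrays.

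The antioxidant response element has the core TGACNNNGC, and this core was searched on both strands of the promoter window of each gene, from 250 bases before to 50 after the transcription start (RefSeq, GRCm38.p6). A window was given for 50 of the 58 genes. The core was present in 15 of these (30%), against 14% of 27025 genes with a window. A selection of the matches is shown so that their cores can be compared, in Nfe2l2 itself, the small MAF genes Maff and Mafk and 4 enzymes of different roles. Each is printed 5′ to 3′ on the strand that carries the core, with the core in capitals.
Nfe2l2, chr2:75704885-75704913, minus strand: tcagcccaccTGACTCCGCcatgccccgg
Maff, chr15:79346499-79346527, plus strand: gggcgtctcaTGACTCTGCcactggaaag
Mafk, chr5:139791513-139791535, minus strand: gtacTGACACCGCttccgggatc
Gclm, chr3:122245413-122245441, minus strand: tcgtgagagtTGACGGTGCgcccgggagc
Txnrd1, chr10:82859104-82859132, minus strand: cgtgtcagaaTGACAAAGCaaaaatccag
Prdx1, chr4:116685456-116685484, minus strand: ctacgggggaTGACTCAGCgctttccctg
Sod1, chr16:90220696-90220724, minus strand: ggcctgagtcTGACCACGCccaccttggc

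All 7 are upstream of the start. The core in Nfe2l2 lies farthest away, 232 to 240 bases upstream, and that in Mafk closest, 5 to 13 bases upstream. A match of 6 fixed letters is common, and it is a description of the letters, not a measured site. The 13 tested genes with the core had a median change of 0.06, with Nfe2l2 and Mafk higher in every db/db array. Among the 28 tested genes with a window but no core the median was 0.03, with Keap1 and Cyba higher and Gstm1 and Txn2 lower in every db/db array. Of all genes 7.39% lay higher and 5.92% lower in every db/db array. The medians with and without the core were not tested against each other. The other 5 tested genes, Hmox1 and Gsr among them, had no window in the table.

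Glutathione is the main small thiol of the cell, and its genes divide into those that make it, recycle it and use it. Of 13 tested members 5 had a higher and 8 a lower mean in db/db, with a median change of -0.02. Gclc, the catalytic subunit of the rate-limiting synthesis step, measured 9.48, 8.70 and 9.55 in normal and 8.99, 9.49 and 9.22 in db/db arrays. Its groups overlapped fully, with a change of -0.01 ± 0.27, and without normal replicate 2 the change was -0.28. Gclm, the modifier subunit, measured 8.61, 8.80 and 8.29 in normal and 8.12, 8.48 and 8.26 in db/db arrays. The groups overlapped, and the change of -0.28 ± 0.17 (adjusted p = 0.843) was -0.16 without normal replicate 2. Gss, which completes the synthesis, changed by -0.07 ± 0.16.

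Gsr, which returns oxidised glutathione to its reduced form with NADPH, measured 7.72, 7.46 and 7.73 in normal and 8.35, 7.85 and 7.83 in db/db arrays. Each db/db array lay above each normal one, and diabetic replicate 1 was well above the other db/db arrays. The change of 0.38 ± 0.17 (1.30-fold) did not pass (adjusted p = 0.805), and it was 0.21 without diabetic replicate 1. That array also had the highest summed leukocyte signal, at 2625, and their part in the result was not tested.

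The glutathione peroxidases remove hydrogen peroxide and lipid peroxides. Gpx1, the cytosolic peroxidase, measured 11.59, 11.14 and 11.63 in normal and 11.47, 11.34 and 11.23 in db/db arrays. The groups overlapped, and its change of -0.10 ± 0.16 was -0.26 without normal replicate 2. Gpx4, which protects membranes from lipid peroxides, changed by 0.07 ± 0.12, Gpx7 by 0.15 ± 0.11 and Gpx8 by 0.20 ± 0.24. Gpx3, a secreted peroxidase made mainly by the proximal tubule, lay below the level, at 6.21, 6.25 and 6.18 in normal and 6.99, 6.34 and 6.43 in db/db arrays. Each db/db array lay above each normal one and diabetic replicate 1 alone reached the level. Summed proximal tubule markers were 938 in that array against 760 to 812 in normal arrays and 773 and 860 in diabetic replicates 2 and 3.

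Among glutathione transferases, which couple glutathione to electrophiles, Gstm1 was lower in db/db. It measured 10.82, 10.98 and 11.08 in normal and 10.32, 10.76 and 10.38 in db/db arrays. No db/db array reached the normal ones, with diabetic replicate 2 closest, and the change of -0.47 ± 0.15 (1.39-fold lower) did not pass (adjusted p = 0.702). Its neighbour in the same family, Gstm2, measured 9.92, 10.35 and 9.72 in normal and 9.76, 9.49 and 9.58 in db/db arrays. Here diabetic replicate 1 lay above normal replicate 3, and the change was -0.38 ± 0.18 (adjusted p = 0.814). Without normal replicate 2 it was -0.21. Genes of the Gstm family are similar in sequence, and whether these probesets also read other members was not tested. Gstp1 changed by -0.02 ± 0.12 and Gsta4 by -0.28 ± 0.34.

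Mgst1, a membrane-bound transferase and peroxidase, had the highest change among the tested genes, 0.57 ± 0.31 (adjusted p = 0.835). It measured 7.55, 7.43 and 6.60 in normal and 8.12, 7.41 and 7.75 in db/db arrays. The groups overlapped, and without normal replicate 3, the lowest array, the change was 0.27.

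The thioredoxin system passes electrons from NADPH through thioredoxin reductase and thioredoxin to the peroxiredoxins, which destroy peroxides. Of 8 tested members 5 had a higher and 3 a lower mean, with a median change of 0.05. Txn2, the thioredoxin of mitochondria, had the smallest p of all 46 genes. It measured 8.88, 8.84 and 8.97 in normal and 8.23, 8.58 and 8.43 in db/db arrays. The groups were clearly apart, and the change of -0.49 ± 0.11 (1.40-fold lower) did not pass over all probesets (adjusted p = 0.562). Txnrd2, the reductase of the same compartment, lay below the level, at 6.53, 6.83 and 6.29 in normal and 6.52, 6.52 and 6.87 in db/db arrays. Prdx3, a mitochondrial peroxiredoxin that Txn2 serves, changed by -0.09 ± 0.15 (8.12, 8.52 and 8.54 in normal, 8.47, 8.27 and 8.18 in db/db).

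In the cytosol, Txn1 changed by 0.06 ± 0.09. Txnrd1, the cytosolic reductase and a known NRF2 target, measured 8.38, 7.89 and 8.34 in normal and 8.50, 8.35 and 8.43 in db/db arrays. The groups overlapped narrowly, and the change of 0.22 ± 0.15 (adjusted p = 0.867) was 0.06 without normal replicate 2, the lowest array. Srxn1, which repairs over-oxidised peroxiredoxins and is another NRF2 target, measured 9.22, 9.44 and 9.33 in normal and 9.45, 9.38 and 9.32 in db/db arrays. Its groups overlapped almost wholly, with a change of 0.05 ± 0.09.

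Prdx1, a cytosolic peroxiredoxin, measured 11.40, 11.39 and 11.57 in normal and 11.42, 11.35 and 11.39 in db/db arrays. The arrays differed little, and the change was -0.07 ± 0.09. Prdx4, the peroxiredoxin of the endoplasmic reticulum, measured 9.74, 10.32 and 9.90 in normal and 10.52, 10.25 and 10.32 in db/db arrays. Normal replicate 2 fell within the db/db range, and the change of 0.38 ± 0.17 did not pass (adjusted p = 0.805). Prdx2 measured 12.43, 12.45 and 12.56 in normal and 12.73, 12.39 and 12.71 in db/db arrays, a change of 0.13 ± 0.12. The probeset used for Prdx2 is uncertain, because none of the 20 annotated probesets nearest to it in number belong to its gene's chromosome, and the other Prdx2 probeset changed by -0.19.

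**Figure D2:**
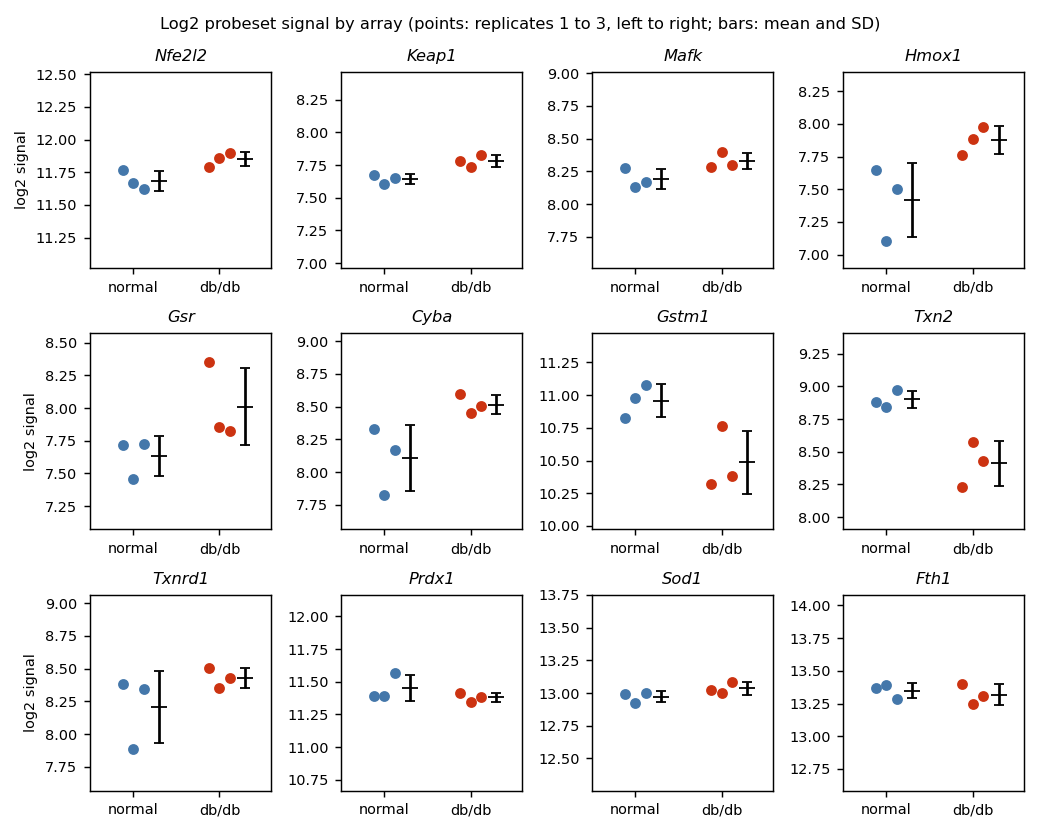
Log2 probeset signal of 12 redox genes in each array (points, replicates 1 to 3 from left to right) of normal (blue) and db/db (red) GEC, beside bars for each group's mean and SD (n = 3), each panel with its own axis of equal span. Nfe2l2, Keap1, Mafk, Hmox1, Gsr and Cyba lie higher and Gstm1 and Txn2 lower in every db/db array, while Txnrd1, Prdx1, Sod1 and Fth1 overlap.

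Superoxide is made by the NADPH oxidases, in which a catalytic subunit (NOX2 from Cybb, or NOX4) needs the membrane partner p22phox from Cyba. Cyba measured 8.33, 7.83 and 8.17 in normal and 8.59, 8.45 and 8.50 in db/db arrays. Each db/db array lay above each normal array, and the change of 0.41 ± 0.15 (1.33-fold) did not pass (adjusted p = 0.754). Without normal replicate 2, the lowest array, it was 0.27. Cybb lay below the level, at 6.13, 5.79 and 5.85 in normal and 7.41, 6.13 and 6.77 in db/db arrays. Only diabetic replicates 1 and 3 reached the level, diabetic replicate 2 was level with the highest normal array, and the difference of 0.85 in means was 0.53 without diabetic replicate 1.

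NOX2 is the oxidase of phagocytes, and the order of the db/db arrays in Cybb (replicate 1, then 3, then 2) was also that of their summed leukocyte markers, at 2625, 1592 and 1398. Of the 13 measured leukocyte genes 9 had a higher mean in db/db and 1, Cd68, reached an unadjusted p under 0.05, with a change of 0.76. The defining genes Ptprc, Csf1r, Adgre1 and Itgam reached the level in no array and differed by -0.10, 0.07, 0.00 and 0.01. Tyrobp, whose means differed by -0.06, had the same order of db/db arrays, at 10.04, 7.45 and 8.83 in replicates 1 to 3. Tyrobp is itself part of that sum, and without it replicate 2 would lie above replicate 3 in the sum. Cd68, at 7.95, 7.59 and 6.91, and Lyz2, at 7.41, 6.82 and 6.61 in diabetic replicates 1 to 3, differed in order. C1qa, at 8.27, 7.08 and 7.09, had replicates 2 and 3 nearly level. The part of these cells in the signal of Cybb and Cyba was not tested. Ncf1, a cytosolic subunit of the NOX2 complex, changed by 0.01 ± 0.10.

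Nox4, the oxidase usually named for endothelium and kidney, reached the level in no array, at 5.10, 5.24 and 5.15 in normal and 5.14, 5.12 and 5.31 in db/db arrays. Below the level Nox4 was not tested in the main fit, and its means differed by 0.02. Xdh, xanthine oxidoreductase, which can also make superoxide and is abundant in capillary endothelium, measured 9.83, 9.99 and 9.28 in normal and 10.05, 8.96 and 9.48 in db/db arrays. Its db/db arrays included both the highest and the lowest value, and the change of -0.20 ± 0.32 ran from -0.48 without diabetic replicate 1 to 0.06 without diabetic replicate 2. Aox1, a related oxidase, changed by 0.28 ± 0.19.

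The scavengers of superoxide and peroxide showed small changes, with a median of -0.01 over 3 tested genes. Sod1, the cytosolic superoxide dismutase, measured 12.99, 12.92 and 13.00 in normal and 13.02, 13.00 and 13.09 in db/db arrays. Only diabetic replicate 2 fell within the normal range, and the change of 0.06 ± 0.08 had a 95% interval of -0.12 to 0.25. Sod2, the mitochondrial enzyme, measured 8.72, 9.16 and 8.95 in normal and 8.69, 8.72 and 9.02 in db/db arrays, a change of -0.13 ± 0.15 with groups that overlapped. Cat, catalase, measured 10.16, 9.99 and 9.81 in normal and 9.91, 10.01 and 10.02 in db/db arrays. Its db/db arrays lay inside the normal range, with a change of -0.01 ± 0.11 and an interval of -0.29 to 0.27. Sod3, the extracellular enzyme, reached the level in no array (6.41, 6.28 and 6.14 in normal, 6.29, 6.34 and 6.26 in db/db).

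Nqo1, a quinone reductase and a standard readout of NRF2, reached the level in no array. It measured 5.37, 5.55 and 5.39 in normal and 5.50, 5.38 and 5.85 in db/db arrays. Diabetic replicate 3 was the highest, and without it the means differed by 0.00. NADPH, which feeds both thiol systems, comes from the pentose phosphate pathway and malic enzyme. Pgd changed by -0.07 ± 0.16, Tkt by 0.11 ± 0.10 and Taldo1 by 0.05 ± 0.10. Me1, the malic enzyme, changed by -0.42 ± 0.47, which was 0.01 without normal replicate 1, at 7.94 the highest array. Its probeset is uncertain too, since only 1 of the 20 annotated probesets nearest in number is from its gene's chromosome. The other Me1 probeset, with 19 of 20 neighbours on that chromosome, lay below the level, with means of 6.71 in normal and 6.59 in db/db. Osgin1, an NRF2 target linked to growth arrest, changed by -0.01 ± 0.09.

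Hmox1, heme oxygenase-1, is the classic inducible gene of this set and splits heme into iron, carbon monoxide and biliverdin. It measured 7.65, 7.11 and 7.50 in normal and 7.76, 7.88 and 7.98 in db/db arrays. The groups did not overlap, normal replicate 1 lay nearest to the db/db arrays, and the change of 0.46 ± 0.16 (1.37-fold) did not pass (adjusted p = 0.753). Without normal replicate 2, the array that stood apart, it was 0.30. Summed erythrocyte markers, mainly globin, were lower in those 3 db/db arrays, at 4845, 7563 and 5923 against 17223 to 25666 in normal arrays. The red cell genes Alas2 and Slc4a1 differed by -0.10 and 0.01, and the part of red cells in the result was not tested. Hmox2, the constitutive enzyme, had the opposite sign, with a change of -0.23 ± 0.15. Blvra, which turns biliverdin into bilirubin, changed by 0.27 ± 0.22 and Blvrb by -0.03 ± 0.09.

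Fth1, the heavy chain of the iron store ferritin, measured 13.37, 13.39 and 13.28 in normal and 13.40, 13.25 and 13.31 in db/db arrays. The arrays overlapped, and the change of -0.03 ± 0.08 had an interval of -0.24 to 0.18. Ftl1, the light chain, changed by 0.12 ± 0.15, from a probeset with only 1 of 20 neighbours on its gene's chromosome. Tfrc, the transferrin receptor that brings iron in, reached the level in no array (4.73, 4.96 and 4.52 in normal, 4.78, 4.79 and 4.58 in db/db). Slc40a1, ferroportin, which lets iron out and is high in macrophages, measured 6.14, 6.15 and 5.99 in normal and 6.86, 6.08 and 6.39 in db/db arrays. Only diabetic replicate 1 reached the level, and the difference of 0.35 was 0.14 without it.

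Metallothioneins bind zinc and copper and take up oxidants. Mt1 measured 7.46, 7.67 and 7.36 in normal and 7.47, 7.57 and 7.90 in db/db arrays. Diabetic replicate 3 alone stood above the normal range, and the change of 0.15 ± 0.15 was 0.03 without it. Mt2 reached the level in no array (6.18, 5.98 and 6.19 in normal, 6.18, 6.27 and 6.17 in db/db). The metal response element core (TGCACNC or TGCGCNC, both strands) was present in 28% of the 50 windows and in 28.2% of all genes with a window. Mt1 held several matches, and metallothioneins are the textbook targets of this element. The match in Mt1 that lies wholly upstream of the start is shown, with the core in capitals.
Mt1, chr8:94179056-94179082, plus strand: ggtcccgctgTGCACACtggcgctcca

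Across the members, the arrays of a group did not act as 1 block. Diabetic replicate 1 held the highest value of 15 of the 46 tested genes, whereas diabetic replicate 2 held the highest of 1, and normal replicate 2 held the lowest of 15. Against the normal mean, the median member stood at 0.04, -0.03 and 0.00 (log2) in normal replicates 1 to 3 and at 0.06, -0.03 and 0.11 in diabetic replicates 1 to 3. Diabetic replicate 2 was thus level with normal replicate 2. The median log2 signal over all probesets was 7.02, 7.00 and 7.01 in normal and 7.04, 7.01 and 7.04 in diabetic replicates 1 to 3. There too diabetic replicates 1 and 3 were highest and normal replicate 2 lowest. Highest and lowest arrays were not counted over all genes, so these counts are not a trait of the redox genes alone. Single arrays also set some of the changes given above only with their SE. Without normal replicate 2 that of Gpx8 was -0.04 and that of Hmox2 -0.08, without normal replicate 3 that of Gsta4 was 0.05, and without diabetic replicate 3 that of Blvra was 0.10.

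**Figure D3:**
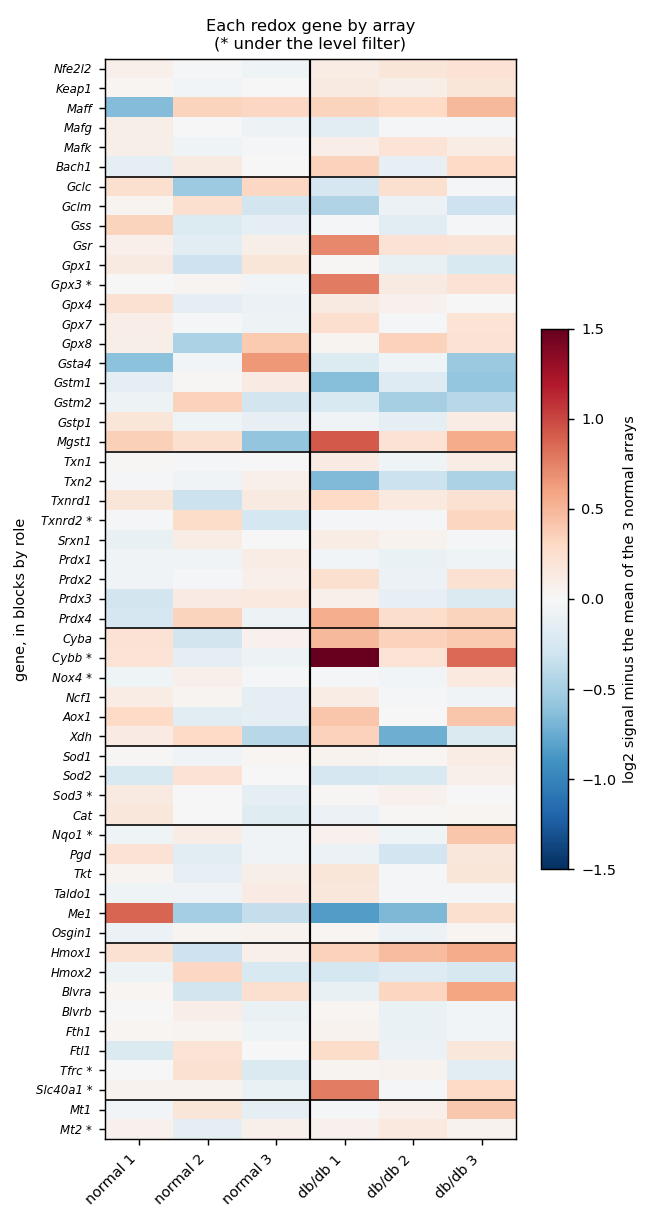
Log2 signal minus the mean of the 3 normal arrays (colour) for each of the 55 redox genes with a probeset (rows, in blocks by role) in each array (columns), where an asterisk marks the 9 genes below the level. Gsr, Gpx3, Cybb, Slc40a1 and Mgst1 are strongest in diabetic replicate 1, and Hmox1, Cyba and Nfe2l2 are above the normal mean in all 3 db/db arrays.

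**Figure D4:**
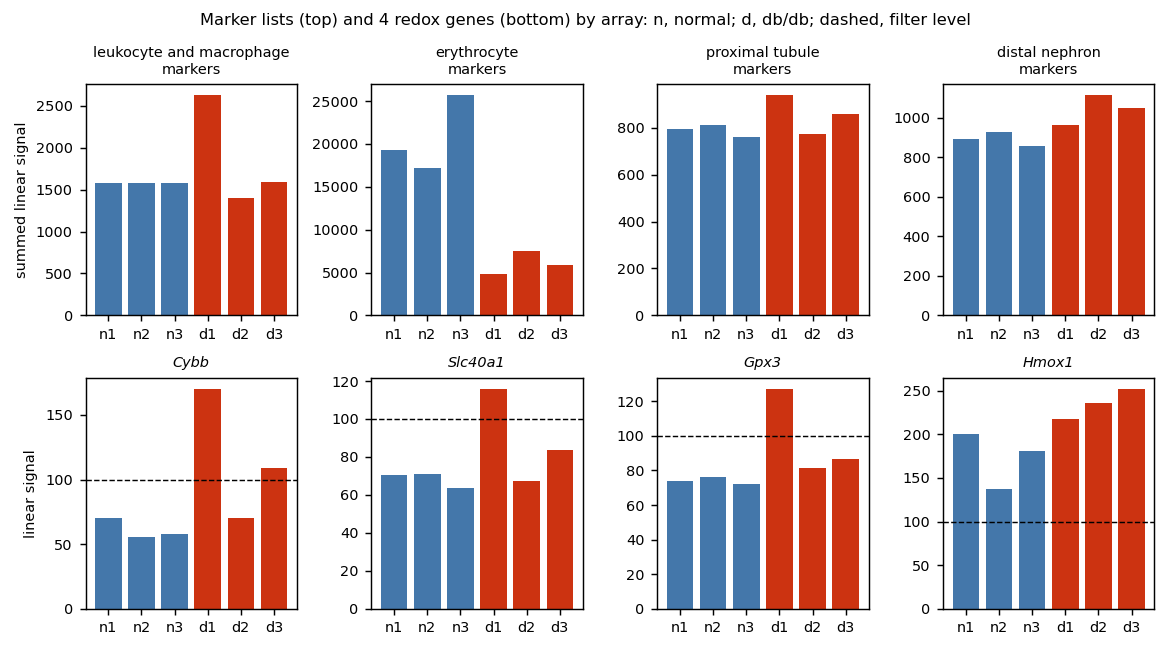
Summed linear signal of 4 marker lists (top) and linear signal of 4 redox genes (bottom) in normal (n1 to n3, blue) and db/db (d1 to d3, red) arrays, with the level of 100 dashed. Leukocyte markers, Cybb, Slc40a1 and Gpx3 peak in diabetic replicate 1, while Hmox1 is higher in all 3 db/db arrays and erythrocyte markers, mainly globin, are lower.

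The rest of the pathway was read from a longer list. Of 71 further NRF2 and redox genes 58 were tested, and 0 passed (limma, lowest adjusted p = 0.376). At an unadjusted p under 0.05, 5 were higher (8.62%, against 3.49% of all genes) and 3 lower (5.17%, against 3.07%). In arrays that did not overlap 8 were higher (13.8%, against 7.39% of all genes) and 5 lower (8.62%, against 5.92%). Their median change was 0.00. The most abundant by signal, Txnip, the inhibitor of thioredoxin, changed by 0.08 and Cul3, the ligase scaffold that KEAP1 recruits, by 0.05.

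Mgst2, a membrane-bound glutathione transferase like Mgst1, measured 6.77, 6.37 and 7.05 in normal and 7.67, 8.73 and 8.11 in db/db arrays. The groups lay apart, with a change of 1.44 ± 0.31 (2.71-fold, adjusted p = 0.534). Abcc4, an exporter of cyclic nucleotides and conjugates and an NRF2 target, measured 8.23 ± 0.21 in normal and 9.02 ± 0.11 in db/db GEC (log2, mean ± SD, n = 3 per group). No arrays overlapped, and the change was 0.79 ± 0.14 (1.73-fold, adjusted p = 0.376). Sesn2, a stress-induced sestrin, differed by 0.40, Noxo1 by 0.25, Slc3a2 by 0.41, Abcc1 by 0.19, Rac2 by 0.26 and Nfe2 by 0.11, each higher in every db/db array. Sesn2 passed the level through its db/db arrays alone, with 6.60, 6.62 and 6.52 in normal arrays, so that its groups had to differ and its place in these counts carries no weight. Nfe2 lay at the level, with 6.62, 6.65 and 6.61 in normal and 6.74, 6.72 and 6.77 in db/db arrays. Only normal replicate 2 of its normal arrays reached the level, so its place in the count without overlap carries no weight either. Trf, transferrin, changed by 0.52 with groups that overlapped.

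Ptgr1 is among the enzymes that reduce carbonyl compounds and are induced through NRF2. It measured 9.13, 9.32 and 9.42 in normal and 8.78, 7.61 and 8.53 in db/db arrays. Every db/db array was lower, diabetic replicate 2 the most, with a change of -0.98 ± 0.31 (1.97-fold lower, adjusted p = 0.702). The carbonyl reductases Cbr1 and Cbr3 were also lower in every db/db array, by -0.39 ± 0.12 (adjusted p = 0.702) and -0.51 ± 0.16 (adjusted p = 0.684). Msrb2, a mitochondrial methionine sulfoxide reductase, changed by -0.30 and Mt3 by -0.11, with no overlap either.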

How the data were processed

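RNA of sorted GEC was amplified, labelled and hybridised by the authors, who deposited 1 column of log2 signal for each array. By the study's methods the values are RMA normalised (GeneSpring), while the submitters' processing notes name MAS5. A normalisation that equalises arrays makes each change relative to the other probesets. No further normalisation was applied. A linear signal of 100 or more in 3 arrays was required of a probeset (20661 of 35557 passed), and a gene was given by its single-symbol probeset with the highest mean. Groups were compared with limma 3.58.1 (R 4.3.3, lmFit and eBayes, two-sided, Benjamini-Hochberg over all 20661, threshold 0.05). Errors beside changes are moderated SE. Precision is limited by the number of arrays. The fit had been tested on simulated data in which 200 probesets changed.

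Members, lists and the rule for named genes were chosen with earlier results of these data known. Arrays were given in full for members with groups that did not overlap, an unadjusted p under 0.05 or one of the 10 smallest p, and for a core of NRF2 and redox genes. Other listed genes were named where groups did not overlap, and the 2 most abundant. Trf was named after its values were seen. The place of a probeset was checked by the chromosomes of the 20 annotated probesets nearest in number. Promoter windows are from RefSeq (GRCm38.p6). Plots used matplotlib 3.10.9 (Python 3.11.15). Alternatives are quantile normalisation, median centring, no level or a level of 200, an intensity trend (also with a robust prior), array weights, a replicate block, the methods' t-test, 1 probeset per gene, annotated probesets only, averaged probesets of a gene and leaving out each array.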

Additional observations from a re-analysis of the deposited data

How the results depend on the processing

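No redox gene passed the adjusted test under any of 18 alternatives, where the lowest adjusted p was 0.41 (Txn2, mean of a gene's probesets). At an unadjusted p under 0.05, Txn2 was lower in 18 of 18, Gstm1 in 14, and Cyba and Hmox1 higher in 13 each. The labels number the replicates without pairing them, and same-numbered arrays deviated together with r between -0.03 and 0.04. With a replicate block 1 member was higher at that p in place of 2 (all genes 3.06%). Leaving out each array in turn, 0 to 3 members were higher and 1 to 3 lower at that p. Over all genes those shares were 2.54% to 3.89% and 2.27% to 3.14%. Without overlap 6 to 16 members were higher and 3 to 6 lower (all genes 11.7% to 13.6% and 9.83% to 12.1%). The median change of the members ran from 0.02 to 0.07. With median centring 5 members were higher without overlap (all genes 6.08%), since the groups of Mafk then overlapped. By the methods' t-test 2 members were higher and 2 lower at an unadjusted p under 0.05 (all genes 3.85% and 2.91%), and 0 after Benjamini-Hochberg adjustment. The higher ones by that t-test were Nfe2l2 and Keap1 (adjusted p = 0.779 and 0.748) in place of Cyba and Hmox1 (adjusted p = 0.807 and 0.814). The median change of 0.05 was 0.03 with median centring and 0.03 with the mean of a gene's probesets. No other setting moved the counts by over 1.5 times.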
